A study of Homo sapiens with 8 samples.

Results

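A group of 7 genes that encode surface antigens and receptors of myeloma cells was examined for trimethylated lysine 4 of histone H3 (H3K4me3): TNFRSF17, CD38, SDC1, SLAMF7, CD28, CD44 and IL6R. They were chosen by name, and each was read in a window of 5 kb to each side of its listed transcription start on the human genome build GRCh37. All 7 of 7 genes were followed, beside 50523 merged regions of the whole data, where a merged region is any stretch in which the called regions of the libraries overlap. Of these, 13729 were called in all 8 libraries and are termed shared regions below.

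The mark was mapped by chromatin immunoprecipitation sequencing in MM1S, an established cell line from human multiple myeloma. Treatment was with KDM5-C70 at 50 uM over 7 days (3 libraries) or with DMSO, the vehicle, whose duration is not labelled (5 libraries). The compound KDM5-C70 blocks the KDM5 histone demethylases, which remove this mark, and the comparison asks where the mark differs between inhibited and vehicle cells. A list of called regions per library was used, and no cell treatment other than these is labelled.

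H3K4me3 is laid down around the starts of active and poised genes, mostly on the nucleosomes just inside the gene. Malignant plasma cells keep many surface proteins of normal plasma cells. Syndecan-1 (SDC1), BCMA (TNFRSF17), CD38 and SLAMF7 are used to recognise these cells and as targets of antibodies or engineered T cells, while CD28, CD44 and the interleukin receptor IL6R carry signals from the bone marrow surroundings.

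The listed starts lie at position 12058964 of chromosome 16 for TNFRSF17, 15779898 of chromosome 4 for CD38 and 20425194 of chromosome 2 for SDC1. Those of the others lie at 160709037 of chromosome 1 for SLAMF7, 204571198 of chromosome 2 for CD28, 35160417 of chromosome 11 for CD44 and 154377669 of chromosome 1 for IL6R. SDC1 is read on the minus strand and the other 6 genes on the plus strand. Distances below are counted from these positions, positive downstream, and where they are said to lie into a gene this means downstream of its start. No exon annotation of GRCh37 was used, so a distance does not name an exon or intron.

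Of the 7 genes, 5 had an entry in the RefSeq promoter table of the build GRCh38.p14. The 250 bases before the start are shown for these 5 because their content of CG pairs, a base step that many promoters carry in clusters, lies on both sides of the median over promoters. Each is printed 5′ to 3′ on the strand of its gene, with every CG pair in capitals. The RefSeq starts belong to another build than the called regions, so these sequences were not placed in the windows.
CD38, chr4:15778078-15778327, plus strand: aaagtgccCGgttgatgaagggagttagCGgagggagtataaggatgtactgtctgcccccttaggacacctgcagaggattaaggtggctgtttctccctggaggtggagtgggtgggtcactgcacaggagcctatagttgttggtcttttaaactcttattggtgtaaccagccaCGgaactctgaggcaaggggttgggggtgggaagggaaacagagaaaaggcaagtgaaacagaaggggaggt
CD28, chr2:203706389-203706638, plus strand: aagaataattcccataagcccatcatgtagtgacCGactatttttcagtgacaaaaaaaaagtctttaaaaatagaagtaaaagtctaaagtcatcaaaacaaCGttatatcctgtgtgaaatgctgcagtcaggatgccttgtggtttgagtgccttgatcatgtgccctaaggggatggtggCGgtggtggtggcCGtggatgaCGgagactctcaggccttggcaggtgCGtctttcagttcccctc
CD44, chr11:35138921-35139170, plus strand: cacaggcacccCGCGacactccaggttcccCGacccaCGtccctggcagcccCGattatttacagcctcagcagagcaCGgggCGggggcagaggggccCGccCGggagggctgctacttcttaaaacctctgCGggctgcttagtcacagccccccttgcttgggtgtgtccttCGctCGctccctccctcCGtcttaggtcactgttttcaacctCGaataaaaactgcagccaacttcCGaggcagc
IL6R, chr1:154405093-154405342, plus strand: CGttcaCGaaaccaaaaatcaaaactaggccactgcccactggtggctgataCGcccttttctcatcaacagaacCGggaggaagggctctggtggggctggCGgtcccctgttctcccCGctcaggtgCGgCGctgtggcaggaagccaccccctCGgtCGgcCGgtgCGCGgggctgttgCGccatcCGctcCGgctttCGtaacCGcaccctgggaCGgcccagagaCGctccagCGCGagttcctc
SDC1, chr2:20225476-20225725, minus strand: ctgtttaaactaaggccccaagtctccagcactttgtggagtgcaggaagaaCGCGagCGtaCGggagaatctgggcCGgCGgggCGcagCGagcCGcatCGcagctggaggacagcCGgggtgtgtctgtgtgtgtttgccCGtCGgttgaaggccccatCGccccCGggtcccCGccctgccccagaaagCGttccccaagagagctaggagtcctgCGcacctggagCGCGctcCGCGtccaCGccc

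CD38 held 3 CG pairs and CD28 held 6, against a median of 11 over 35116 promoters of the table. CD44 held 15, IL6R 22 and SDC1 23, and a further SDC1 start in the table had 21. The CD38 sequence thus ranked at the 22.9 percentile of all promoters for CG pairs and the SDC1 sequence shown at the 74.2 percentile. The GC content was 52.4% for CD38, 45.2% for CD28, 62.4% for CD44, 65.2% for IL6R and 66.4% for SDC1, against a median of 58.0% over the table. On both strands, the GC box GGGCGG occurred 2 times for CD44 and 1 time for each SDC1 start, and 42.6% of all promoters held it. The TATA box TATAAA, which 10.7% of promoters held, was in none of these sequences. The same was true of the AP-1 motif TGANTCA (6.57% of promoters) and the E-box CACGTG (6.35% of promoters). These matches describe letters in a window and no more.

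Called bases and inner bases were read in each library. Called bases are the bases of the window inside any called region. Inner bases are those inside the narrower blocks that the authors' files list within a region, here termed inner segments, and the inner share is inner bases as a percentage of called bases. A base outside every called region may still have carried the mark below the calling limit. No read totals were used, so depth is unknown, and a mark in more cells cannot be told apart from more mark per cell. Nothing in the labels says whether the libraries came from separate cultures, so p-values measure only the spread between these libraries, which may be technical.

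The libraries differed within each treatment as well as between treatments. The lists held 17977 to 37948 regions in KDM5-C70 libraries and 15323 to 32376 in DMSO libraries. The libraries were clustered by the overlap of their called bases (the Jaccard index, bases called in both over bases called in either). The number of sets was fixed at 2, and the sets come from the same called regions that are compared below. The index was 0.560 to 0.734 within a set and 0.309 to 0.543 between sets. The set of short lists held KDM5-C70 1, DMSO 1 and DMSO 2, and the set of long lists held KDM5-C70 2 and 3 and DMSO 3, 4 and 5. Both sets therefore held both treatments, and fits with the set as a term are given beside the pooled ones. Over shared windows, which are 10 kb windows on the midpoints of the shared regions, the median inner share was 66.4% to 73.8% in KDM5-C70 libraries and 77.2% to 87.4% in DMSO libraries.

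The 7 genes had called bases within 5 kb of their starts in nearly every library, the plasma cell antigens no more than the others. Over the whole data, 13729 of 50523 merged regions were called in all 8 libraries, and the share over other gene starts was not computed. SDC1, CD38 and SLAMF7 had called bases in 8 of 8 libraries and TNFRSF17 in 7 of 8, and CD28, CD44 and IL6R had them in 8 of 8. Most called bases lay downstream of the starts. Over the 7 windows and 8 libraries, 94.7% of called bases were beyond the start in the direction of transcription. The share was lowest at TNFRSF17 (78.1%) and CD28 (85.8%), where it was 83.0% with KDM5-C70 and 75.0% with DMSO at TNFRSF17, and 67.3% with KDM5-C70 and 97.5% with DMSO at CD28. These shares pool the bases of all libraries, and by library the treatments overlapped at CD28. Downstream bases there were 482 of 482, 975 of 1775 and 1030 of 1441 bp in KDM5-C70 libraries. They were 355 of 501 bp in DMSO 1 and all called bases in the other DMSO libraries. The start base itself was called in 7 of 8 libraries at CD44, in 2 at IL6R, in 1 at CD38 and in none at the other 4 genes.

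**Figure D1:**
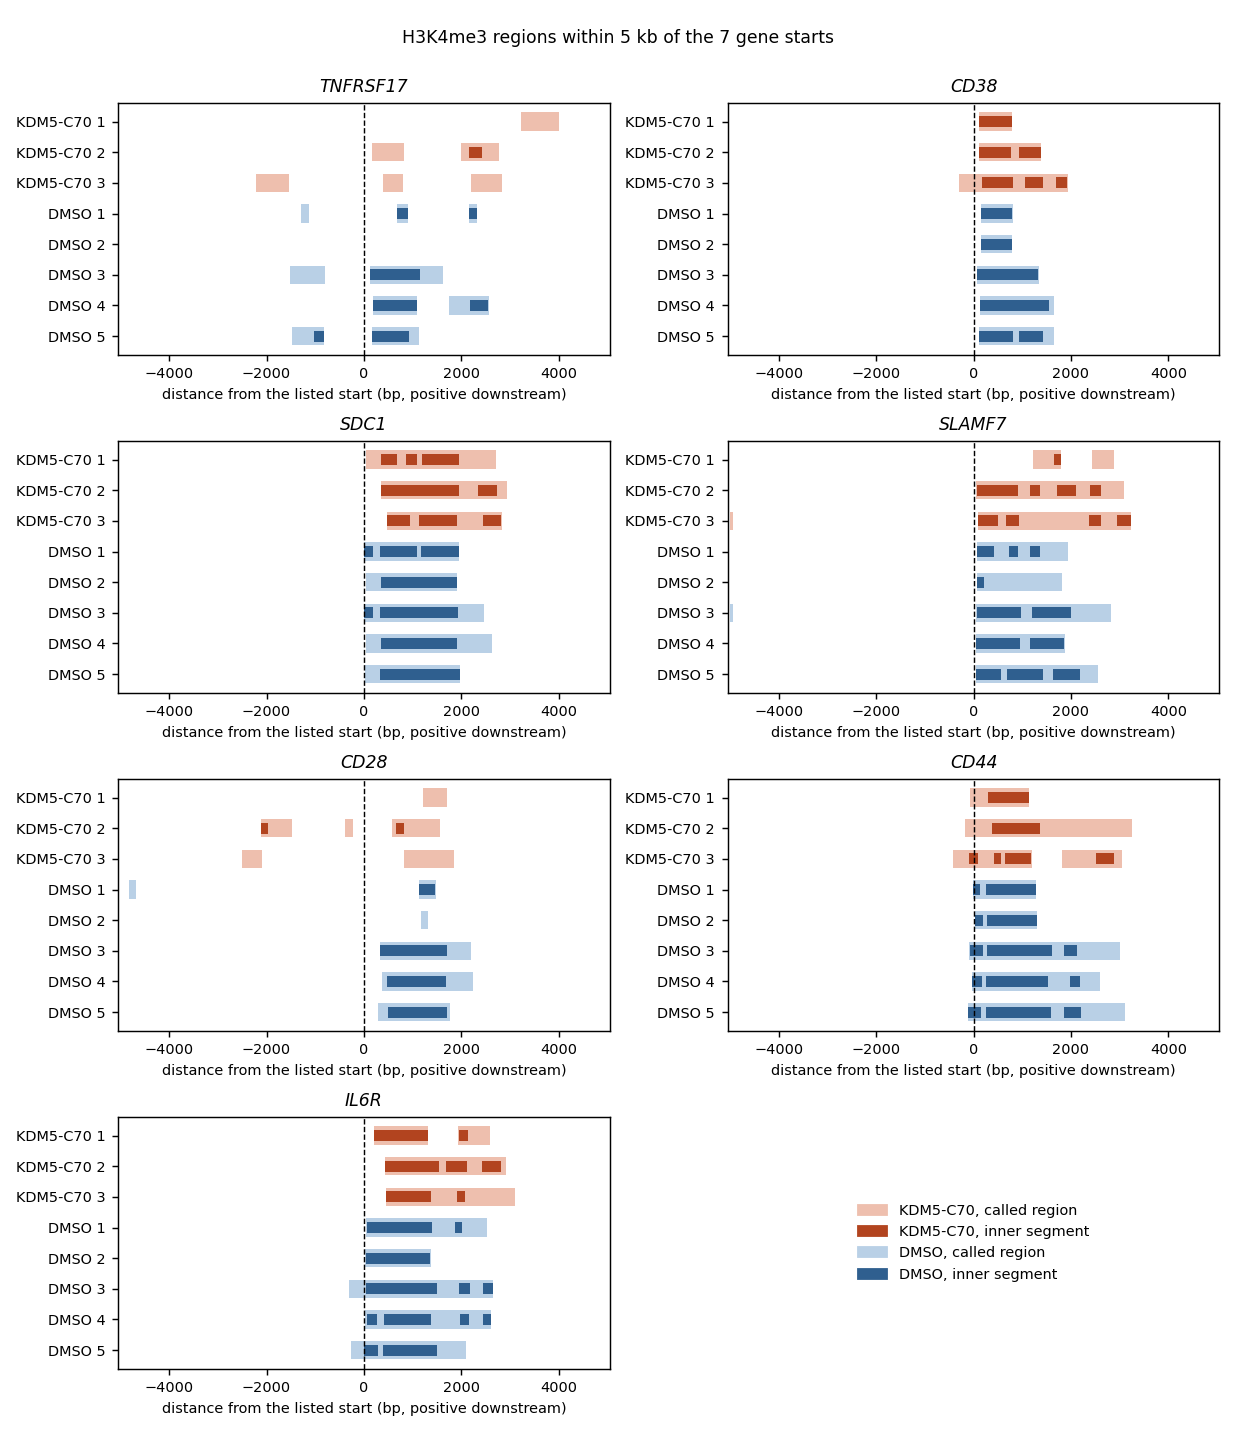
Called regions (light bars) and inner segments (dark bars, on top) of each library at the 7 genes, with KDM5-C70 libraries above DMSO libraries and the distance from the listed start in bp on the x axis, positive downstream. Regions lie mostly to the right of the start at every gene, and inner segments at TNFRSF17 and CD28 are short or missing in the 3 KDM5-C70 libraries.

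The genes differed in the number of called bases in the window, which may lie in separate calls. Among shared windows, CD44 ranked at a median percentile of 95.7 for called bases over the 8 libraries, SLAMF7 at 94.4, IL6R at 92.1 and SDC1 at 92.1. TNFRSF17 had a median percentile of 48.4, CD28 of 45.3 and CD38 of 30.2. Neighbours in this order had overlapping ranges over libraries, so their order is not resolved. CD38, whose promoter sequence holds the fewest CG pairs of the 5 shown, was also the gene with the lowest median percentile. SDC1, whose sequence holds the most, did not have the highest, and no relation of CG pairs to called bases was tested.

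Pooled over both sets of libraries, no gene's called bases separated the treatments. The KDM5-C70 and DMSO values overlapped for 7 of 7 genes. Over the 13729 shared windows, 0.896% were higher and 0.459% lower in every KDM5-C70 library than in any DMSO library. With limma on log2 called bases over 13735 windows, none passed an adjusted p of 0.05 (0.0% of windows), and 229 had an unadjusted p below 0.05. Of the 6 genes tested there, 6 had a fitted log2 difference above 0, with a median of 0.17, but so did 75.9% of all windows, whose median was 0.14. TNFRSF17 was not tested in that fit because DMSO 2 has no called base in its window. With the set as a term 0 windows passed as well (0.0%), with 2156 at an unadjusted p below 0.05. The genes' differences were then between -0.03 for IL6R and 0.23 for SDC1, and the adjusted p by limma lay between 0.402 and 0.968.

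**Figure D2:**
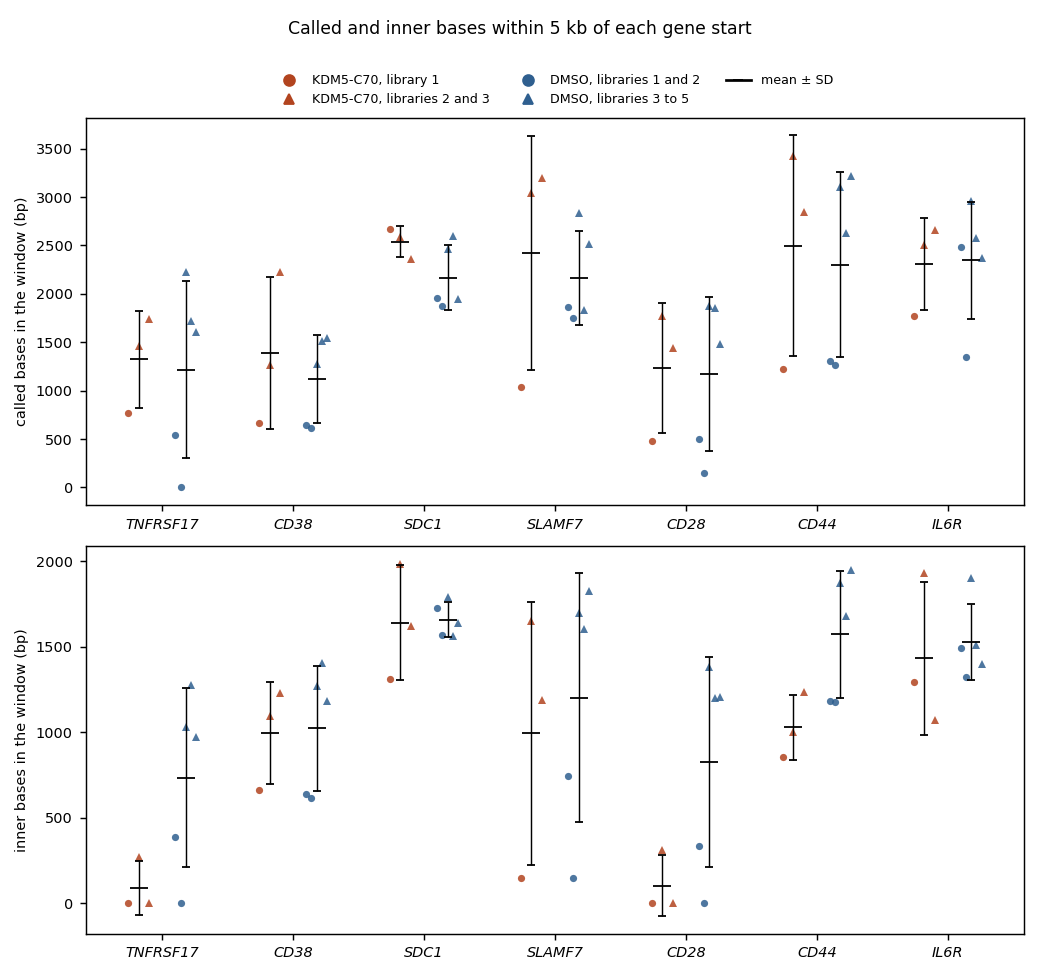
Called bases (upper panel) and inner bases (lower panel) in bp within 5 kb of each start, with KDM5-C70 left of DMSO. Each point is a library, circles are the short lists, triangles the long lists, and the bars are the mean ± SD of each treatment. Called bases overlap between the treatments at all 7 genes, and the 3 KDM5-C70 values for inner bases at CD44 (855, 999 and 1233 bp) lie below all DMSO values of the same set.

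In the fit with no set term, limma passed 0 of 12924 windows for inner bases (0.0%), while 476 had an unadjusted p below 0.05, all narrower (fewer inner bases) with KDM5-C70. With the set as a term, 243 windows passed, all narrower in KDM5-C70 libraries, which is 1.88% of those tested. That count moved with every library left out, between 8 without DMSO 3 and 837 without DMSO 2. CD44 was among them, as 1 of the 5 genes that had inner bases in all 8 libraries and could be tested. The median log2 difference of inner bases over the 5 genes, without the set term, was -0.12, and that of all windows was -0.08. The 5 genes were all below 0, and 36.3% of all windows were above 0. With the set term, the other 4 genes did not pass (limma adjusted p between 0.531 and 0.894). Their log2 differences were -0.60 (SE 0.44) for SLAMF7, -0.14 (SE 0.18) for IL6R, -0.06 (SE 0.13) for CD38 and -0.05 (SE 0.12) for SDC1.

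CD44 encodes the hyaluronan receptor, an adhesion molecule that binds myeloma cells to the marrow matrix. Its called bases numbered 1224, 3424 and 2845 bp in KDM5-C70 libraries 1 to 3, and 1303, 1261, 3101, 2629 and 3217 bp in DMSO libraries 1 to 5. Low values came from the short lists of both treatments, and the groups overlapped (exact permutation test, p = 0.786). The whole called stretch ran from position 35160003 to 35163666 of chromosome 11, and 1108 bp of it, from 37 to 1144 bp inside the gene, were called in all 8 libraries.

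The inner bases of CD44 numbered 855, 999 and 1233 bp in KDM5-C70 libraries and 1181, 1175, 1875, 1681 and 1951 bp in DMSO libraries. KDM5-C70 3, from the long lists, exceeded the DMSO libraries of the short lists, so the pooled groups overlapped, while within each set every KDM5-C70 library lay below every DMSO library. The means were 1029 ± 191 bp with KDM5-C70 (SD, n = 3) and 1573 ± 373 bp with DMSO (SD, n = 5), and the 2-sided exact permutation test gave p = 0.107, where 8 libraries allow no p below 0.0357. Within the short lists the value was 855 bp with KDM5-C70 and a mean of 1178 bp with DMSO, and within the long lists the means were 1116 bp with KDM5-C70 and 1836 bp with DMSO. CD44 was the 1 gene of 7 that was lower within both sets, as were 17.4% of shared windows.

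The fitted log2 difference of CD44 inner bases was -0.59 (SE 0.26, limma adjusted p = 1.00). With the set of libraries as a term it was -0.63 (SE 0.12) and passed the threshold (limma adjusted p = 0.0400). That call was lost when each library was also centred on its own median, at -0.48 (limma adjusted p = 0.0886). It was also lost on leaving out any library other than DMSO 2. The adjusted p by limma then lay between 0.0514 without KDM5-C70 2 and 0.145 without DMSO 3, and was 0.0268 without DMSO 2, while the difference stayed between -0.72 and -0.52. In a window of 2.5 kb to each side the inner bases were 855, 999 and 870 bp in KDM5-C70 libraries and 1181, 1175, 1875, 1681 and 1951 bp in DMSO libraries, which do not overlap (exact permutation test, p = 0.0357, the smallest possible). At that window size 2.19% of shared windows had inner bases lower in every KDM5-C70 library. The value that differs from the wider window is that of KDM5-C70 3, which has a further inner segment of 363 bp beginning 2515 bp into the gene.

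The layout of the segments at CD44 was alike in the DMSO libraries. An inner segment of 146 to 269 bp began within 150 bp of the start in 5 of 5 DMSO libraries and was found in 1 of 3 KDM5-C70 libraries, number 3, where it had 180 bp. The main segment began 290, 371 and 415 bp into the gene in KDM5-C70 libraries, where library 3 split it further, and between 250 and 276 bp into the gene in DMSO libraries. Its far end lay at 1144, 1369 and 1184 bp in KDM5-C70 libraries and at 1289, 1297, 1620, 1524 and 1595 bp in DMSO libraries. These segment positions were picked out after their values were seen and are a description. The inner share of CD44 was 69.9%, 29.2% and 43.3% in KDM5-C70 libraries and 90.6%, 93.2%, 60.5%, 63.9% and 60.6% in DMSO libraries (exact permutation test, p = 0.143).

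TNFRSF17 encodes BCMA, the receptor for the survival factors BAFF and APRIL. Its called bases numbered 766, 1464 and 1738 bp in KDM5-C70 libraries and 541, 0, 2223, 1718 and 1610 bp in DMSO libraries, and the groups overlapped (exact permutation test, p = 0.821). DMSO 2, the shortest list, had none. Its calls were broken into 5 merged regions, of which the most often called, positions 12059086 to 12060586 of chromosome 16, was found in 6 libraries, and no base was called in all 8. The only call of KDM5-C70 1 in the window lay 3235 to 4000 bp downstream of the start, in a merged region that no other library shared.

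Inner bases of TNFRSF17 numbered 0, 270 and 0 bp in KDM5-C70 libraries and 387, 0, 1029, 1275 and 975 bp in DMSO libraries. DMSO 2, with no call, shared the value of 0 with KDM5-C70 libraries 1 and 3, so the groups overlapped (means 90.0 ± 156 bp with KDM5-C70, SD, n = 3, and 733 ± 524 bp with DMSO, SD, n = 5, exact permutation test, p = 0.143). Within the long lists the mean was 135 bp with KDM5-C70 and 1093 bp with DMSO, and within the short lists 0 bp with KDM5-C70 and 193.5 bp with DMSO. The inner share, which leaves DMSO 2 out, was 0%, 18.4% and 0% in KDM5-C70 libraries and 71.5%, 46.3%, 74.2% and 60.6% in DMSO libraries 1, 3, 4 and 5. The groups did not overlap, and the exact permutation p of 0.0571 is the smallest that 7 libraries allow. TNFRSF17 was the 1 gene of 7 with an inner share lower in every KDM5-C70 library, as were 21.7% of shared windows over the same 7 libraries. Over all 8 libraries, 12.4% of shared windows had a lower and 0.197% a higher inner share in every KDM5-C70 library, and no gene had a higher one.

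CD28, a co-stimulatory receptor of T cells that myeloma cells can also carry, had a like pattern. Its called bases numbered 482, 1775 and 1441 bp in KDM5-C70 libraries and 501, 146, 1874, 1855 and 1482 bp in DMSO libraries (exact permutation test, p = 0.929). Its low values were those of the short lists, DMSO 2 lowest, and 101 bp, from 1216 to 1316 bp inside the gene, were called in all 8. The inner bases numbered 0, 309 and 0 bp in KDM5-C70 libraries and 336, 0, 1381, 1203 and 1205 bp in DMSO libraries (means 103 ± 178 bp with KDM5-C70, SD, n = 3, and 825 ± 616 bp with DMSO, SD, n = 5, exact permutation test, p = 0.143).

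The 3 DMSO libraries with long lists each held 1 unbroken CD28 segment of 1203 to 1381 bp. KDM5-C70 2 had a segment of 163 bp within that stretch, and its other segment, of 146 bp, lay apart from it, upstream of the start. The inner share of CD28 was 0%, 17.4% and 0% in KDM5-C70 libraries and 67.1%, 0%, 73.7%, 64.9% and 81.3% in DMSO libraries. Only DMSO 2 of the vehicle libraries was at 0, as were KDM5-C70 1 and 3 (exact permutation test, p = 0.143). Within the long lists the mean inner bases of CD28 were 154.5 bp with KDM5-C70 and 1263 bp with DMSO, and within the short lists 0 bp with KDM5-C70 and 168 bp with DMSO. Inner share was lower within both sets at 2 of 7 genes, CD44 and TNFRSF17, as at 26.2% of shared windows, though TNFRSF17 has DMSO 1 alone as the vehicle library of the short lists.

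TNFRSF17 and CD28 had inner bases in 1 of 3 KDM5-C70 libraries and in 4 of 5 DMSO libraries each, too few for the fits across all windows, so no adjusted p is given for their inner bases.

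**Figure D3:**
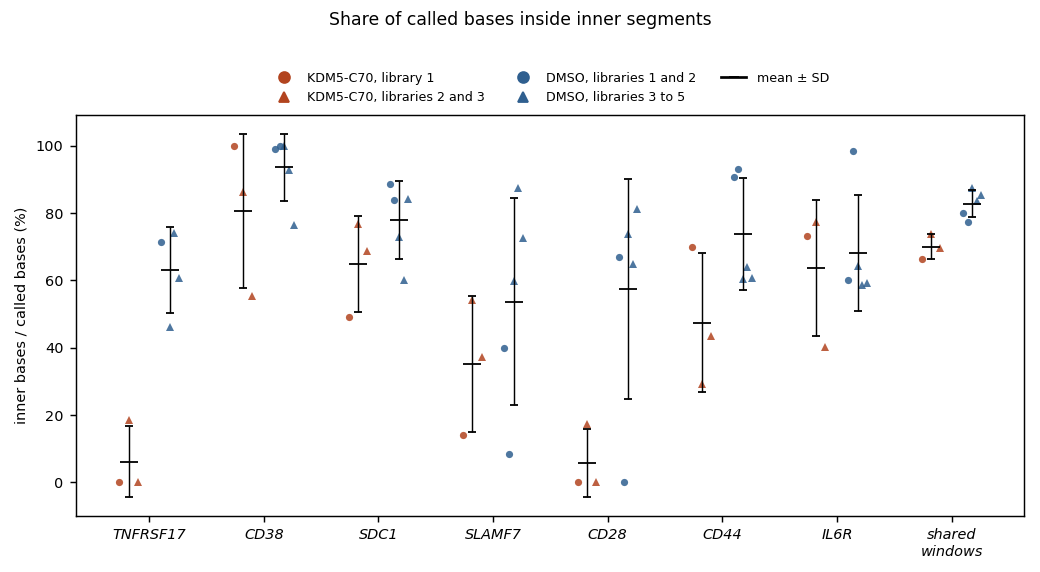
Inner bases as a percentage of called bases at each gene, with KDM5-C70 left of DMSO; each point is a library with called bases in the window (circles for short lists, triangles for long lists), bars are the mean ± SD, and the last column gives the median over shared windows in each library. TNFRSF17 is the gene whose treatments do not overlap (0% to 18.4% with KDM5-C70, 46.3% to 74.2% with DMSO), and the IL6R values of both treatments intermingle.

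SDC1 encodes syndecan-1, the heparan sulfate proteoglycan that marks plasma cells. Its called bases numbered 2670, 2589 and 2361 bp in KDM5-C70 libraries and 1953, 1873, 2459, 2602 and 1945 bp in DMSO libraries. It had the smallest spread over libraries of the 6 genes with called bases in all 8 libraries, with an SD of log2 called bases of 0.21. KDM5-C70 3 and DMSO 3 and 4 intermingled, so the groups overlapped (means 2540 ± 160 bp with KDM5-C70, SD, n = 3, and 2166 ± 338 bp with DMSO, SD, n = 5, exact permutation test, p = 0.214). The log2 difference was 0.24 (SE 0.17, limma adjusted p = 0.999).

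The SDC1 region ran further into the gene with KDM5-C70. It ended 2704, 2933 and 2841 bp into the gene in KDM5-C70 libraries and 1963, 1912, 2465, 2634 and 1976 bp in DMSO libraries, without overlap. On the start side it began at 35, 345 and 481 bp with KDM5-C70 and between 7 and 40 bp with DMSO, where the value of KDM5-C70 1 overlaps. The inner bases numbered 1313, 1985 and 1622 bp in KDM5-C70 libraries and 1729, 1570, 1794, 1564 and 1639 bp in DMSO libraries, which overlapped (exact permutation test, p = 0.857). All 8 libraries had inner segments over a stretch that began 324 to 483 bp into the gene and ended between 1909 and 1975 bp, split into pieces in 3 of them. KDM5-C70 2 and 3 had a further segment of 379 and 370 bp beyond it, beginning 2353 and 2454 bp into the gene, which KDM5-C70 1 and the 5 DMSO libraries did not have.

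SLAMF7, a self-binding receptor of plasma and natural killer cells, had 1035, 3039 and 3199 called bp in KDM5-C70 libraries and 1863, 1755, 2832, 1835 and 2517 bp in DMSO libraries. KDM5-C70 libraries held both the lowest and the highest values (exact permutation test, p = 0.714). Its last called base lay 2891, 3088 and 3231 bp into the gene in KDM5-C70 libraries. In DMSO libraries it lay at 1941, 1819, 2832, 1880 and 2558 bp, again without overlap. In KDM5-C70 1 that base belonged to a separate call, from 2439 to 2891 bp, with no inner segment. The other call of that library ran from 1223 to 1804 bp and ended short of every DMSO end. Its inner bases numbered 146, 1649 and 1187 bp in KDM5-C70 libraries and 744, 146, 1697, 1604 and 1827 bp in DMSO libraries (exact permutation test, p = 0.714). The groups overlapped there too, with a low value in each.

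Far ends of SDC1 and SLAMF7 were 2 of the 12 ends of the genes' shared regions (6 genes, 2 ends each) that lay further out in every KDM5-C70 library, against 2.38% of the ends of all shared regions. A further end lay further in, that of IL6R on the start side, against 2.23% of all ends, and the other 9 overlapped. An end is the outermost called base of a library in the shared region, even where its calls there are separate, as in KDM5-C70 1 at SLAMF7. Ends were compared after seeing the data, as a description with no test. The bases called in every KDM5-C70 library and in no DMSO library amounted to 70 bp at SDC1 and 59 bp at SLAMF7.

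IL6R encodes the receptor for interleukin-6, a growth factor of myeloma cells. Its called bases numbered 1767, 2502 and 2660 bp in KDM5-C70 libraries and 2483, 1345, 2963, 2577 and 2368 bp in DMSO libraries, and the groups intermingled (exact permutation test, p = 1.00). Its inner bases numbered 1292, 1933 and 1073 bp in KDM5-C70 libraries and 1491, 1325, 1900, 1511 and 1402 bp in DMSO libraries. They also overlapped (exact permutation test, p = 0.75), with the highest and the lowest value both from KDM5-C70 libraries.

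The start-side end of the IL6R region did separate the treatments. It lay 207, 424 and 453 bp inside the gene in KDM5-C70 libraries, and at 42, 24, -308, 32 and -269 bp in DMSO libraries. Thus 165 bp next to the start, from 42 to 206 bp, were called in 5 of 5 DMSO libraries but not with KDM5-C70. An inner segment began within 150 bp of the start in 0 of 3 KDM5-C70 libraries and in 5 of 5 DMSO libraries. At SLAMF7 it was so in 2 of 3 KDM5-C70 and 5 of 5 DMSO libraries. At CD38 the counts were 2 of 3 and 3 of 5, and at SDC1 0 of 3 and 2 of 5. They were 0 of 3 and 1 of 5 at TNFRSF17, and CD28 had none. As at CD44, these segment positions are a description, and no share over all shared windows was computed.

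CD38 encodes an ectoenzyme that consumes NAD and is a target of therapeutic antibodies. Its called bases numbered 664, 1270 and 2223 bp in KDM5-C70 libraries and 648, 617, 1271, 1511 and 1546 bp in DMSO libraries. The short lists were low in both treatments, KDM5-C70 3 was highest, and the groups overlapped (exact permutation test, p = 0.571). The inner bases numbered 664, 1094 and 1231 bp in KDM5-C70 libraries and 641, 617, 1269, 1403 and 1183 bp in DMSO libraries (exact permutation test, p = 0.821). In the short lists nearly all called bases were inner, with an inner share of 100% in KDM5-C70 1 and of 98.9% and 100% in DMSO 1 and 2.

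**Figure D4:**
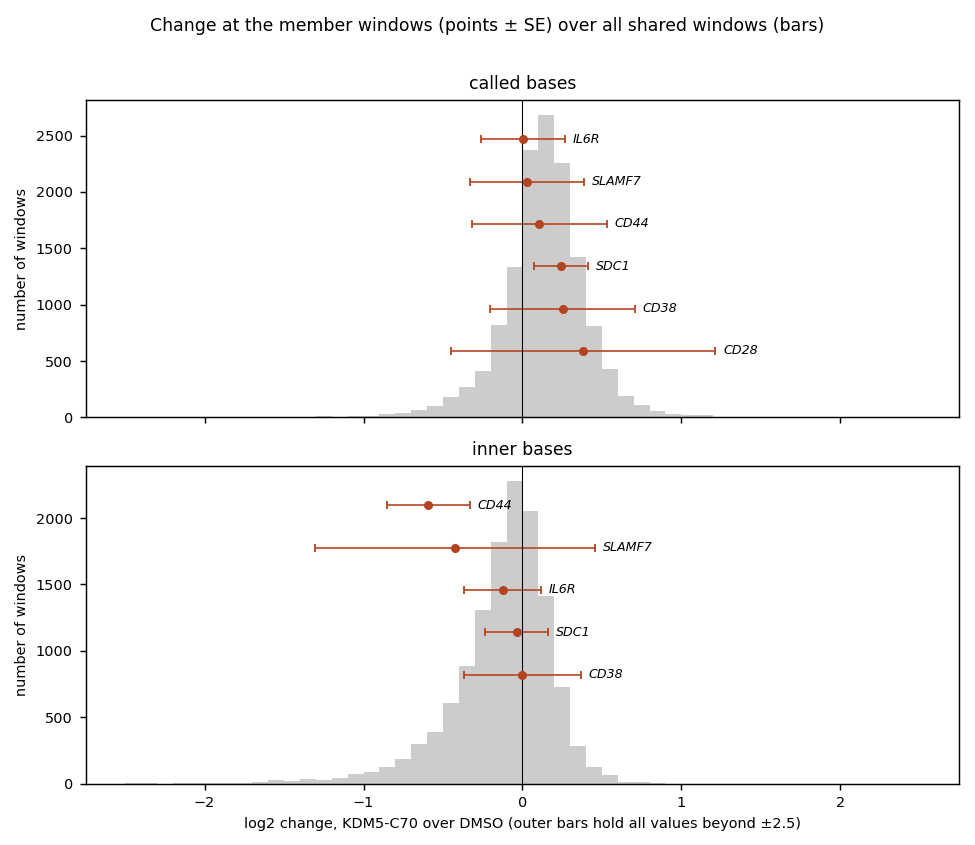
Log2 difference, KDM5-C70 minus DMSO, for called bases and inner bases: the grey bars count all windows tested with limma (y axis) and the points with bars are the genes tested and their SE, at heights with no meaning. The genes lie within the spread of all windows, with CD44 inner bases at -0.59 among the lower ones.

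Across all windows, separation of inner bases in the pooled libraries was also uneven in direction. Of shared windows, 2.12% had inner bases lower in every KDM5-C70 library and 0.0219% had them higher, and 0 of the 7 genes had either. The median inner share over all shared windows, given above, was lower in KDM5-C70 libraries, and its part in the genes' values was not tested.

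Of the 6 genes called in all 8 libraries, CD28 varied most, with an SD of log2 called bases of 1.34. The windows whose called bases followed it most closely over the 8 libraries were chr1:32224370-32234370 (Pearson's r = 0.997), chr19:1434089-1444089 (r = 0.996) and chr20:31403029-31413029 (r = 0.995) on GRCh37. The points share the list length of each library, the median r over 13728 windows was 0.833 and 3238 exceeded 0.9, so a high r is common here.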

How the data were processed

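H3K4me3 was measured by ChIP-seq in 8 MM1S libraries, 3 with KDM5-C70 and 5 with DMSO. Trim Galore 0.40, Bowtie 1.1.2, MACS2 2.1.0, HOMER 4.8 and GRCh37 are named per the submitters' processing notes, with no settings (not given in the sources used here). For each library the authors deposited a list of called regions, so regions were not called on pooled libraries. Each of its 15 columns lacks a header. Positions and inner blocks are in base pairs as deposited, and blocks of 1 bp, which mark region ends, were left out. The deposited score, fold enrichment (a ratio) and -log10 of p-values and q-values are the authors' values per region. Of these, the -log10 q-value was used to make stricter lists.

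Regions on chromosomes 1 to 22 and X were merged where they overlapped by at least 1 bp. Windows were 5 kb to each side of each start and of the midpoint of each shared region. Values of single genes went through an exact permutation test, 2-sided, over 56 arrangements (35 where 1 library had no call), the smaller tail doubled. All windows with bases in every library were fitted on log2 bases by limma 3.58.1 (R 4.3.3), with a variance trend and no centring, and p-values were adjusted by Benjamini-Hochberg (threshold 0.05). The remaining work ran on matplotlib 3.10.9, scipy 1.17.1, pandas 2.3.3 and numpy 2.4.6 under Python 3.11.15. The steps were tested on simulated data.

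The 7 genes, lists and tests were chosen with earlier results of these data known. All 7 genes are named, and the likeness rule took the gene called in all 8 libraries with the largest SD and the 3 windows with the highest r. Other surface antigen and receptor genes were not analysed here, since the gene table used is of GRCh38.p14. Alternatives covered centring, the set of libraries as a term, the replicate number as a block, no variance trend, a pseudocount of 200 bp, merged regions, windows of 2.5 and 10 kb to each side, regions filtered at -log10 q of 5 or more, equally long lists and leaving out each library. Added after seeing the data were the set term with a library left out, a looser filter for the pseudocount fits (at least 4 libraries, not used for genes low in 1 treatment), region ends, counts within both sets, and shares of windows that do not overlap under each alternative.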

Additional observations from a re-analysis of the deposited data

Results flagged for a closer look

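Among 21 groups of 4 or 5 DMSO values examined, 2 had a library far from the others, where chance alone marks about 5% of such groups. Both were inner shares of DMSO 2, the shortest list. At CD28 it had an inner share of 0%, with the other DMSO libraries between 64.9% and 81.3%. At IL6R it had an inner share of 98.5%, with the other DMSO libraries between 58.6% and 64.1%.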

How the results depend on the processing

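Called bases passed limma in 0 windows without and with the set term, in 23 with the set term and centring, in 10 with the replicate block (1 wider, 9 narrower, over replicates 1 to 3 of each group) and in 2 of the 18 windows left with -log10 q of at least 5. Inner bases passed in 26 windows with centring, in 243 with the set term, in 265 with both (21 wider, 244 narrower) and in 1 of the 15 windows left with -log10 q of at least 5. Leaving out a library gave 0 to 1 without the set term (1 without KDM5-C70 1) and 8 (without DMSO 3) to 837 (without DMSO 2) with it. The count of genes that did not overlap in called bases became 1 with -log10 q of at least 5 (CD44, lower, as 8.09% of shared windows) and 0 to 1 on leaving out a library (SLAMF7, higher without KDM5-C70 1, as 39.7%). For inner bases it became 1 with windows of 2.5 kb (CD44, lower, as 2.19%), 1 with -log10 q of at least 5 (CD44, lower, as 8.34%), and 0 to 2 on leaving out a library. Those were IL6R without KDM5-C70 2 (lower, as 6.34%), CD44 without KDM5-C70 3 (lower, as 3.15%), and TNFRSF17 and CD28 without DMSO 2 (lower, as 8.07%). No KDM5-C70 region at CD44 reached a -log10 q of 5, so its KDM5-C70 values under that limit were 0.

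Differences in called bases (KDM5-C70 minus DMSO, bp) that turned sign were -343 for TNFRSF17 and -239 for SLAMF7 in windows of 2.5 kb, and -581 for TNFRSF17 and -242 for CD28 in lists of equal length. With -log10 q of at least 5 they were -332 for TNFRSF17, -995 for CD38, -391 for SDC1, -1420 for SLAMF7, -29.2 for CD28 and -2302 for CD44, where that limit passed 3028 to 7036 regions in KDM5-C70 lists and 6394 to 19917 in DMSO lists. No KDM5-C70 region reached that limit at CD38, SDC1, CD28 or CD44, where their highest -log10 q was 4.07, 3.51, 2.87 and 4.70. The differences at these genes are therefore the DMSO means with a minus sign. At SDC1 only DMSO 1 had a region that passed, and at CD28 only DMSO 2. IL6R inner share differed by 1.39 percentage points in windows of 2.5 kb. The cause was not tested for these.

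On leaving out each library, differences in called bases ran from -200.3 to 383 for TNFRSF17, -152 to 628 for CD38, -123 to 959 for SLAMF7, -210.1 to 436 for CD28, -268 to 832 for CD44 and -288 to 234 for IL6R. Those in inner bases ran from -144 to 139.9 for CD38, -192 to 144 for SDC1, -537 to 214 for SLAMF7 and -343 to 86.7 for IL6R, and that in IL6R inner share from -11.4 to 7.08 percentage points. None of these 11 differences passed its test with all libraries.

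Replicate numbers 1 to 3 recur in both groups. The correlation of same-numbered libraries' deviations in called bases was 0.395, -0.324 and 0.339. Its sign followed the short and long lists, as KDM5-C70 1 had 0.43 with DMSO 2 and -0.455 with DMSO 3. These values therefore cannot tell whether the numbers pair the libraries. Unknown depth limits every statement on uncalled bases.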
